A study of Rattus norvegicus with 7 samples.

Results

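The neutrophil genes S100a8 (ENSRNOG00000011557), S100a9 (ENSRNOG00000011483), Mmp8 (ENSRNOG00000009907), Trem1 (ENSRNOG00000022859) and Lrg1 (ENSRNOG00000049918) were followed in fetal rat lung, 5 of the 23918 genes in the deposited count table. They were taken by identifier, with no threshold on their values. The lungs came from Sprague-Dawley fetuses whose mothers received an intra-amniotic (IA) injection on gestational day 18, and were collected 24 h later. The 3 control lungs were exposed to PBS and the 4 IA LPS lungs to 10 µg of LPS from E. coli, the lipopolysaccharide that coats Gram-negative bacteria. The sample label writes that dose incompletely, and the series' design text gives it in full. Nothing in the labels says that the lungs came from separate dams, so the p-values measure only the spread between these samples. The counts that the study published with its lung comparison hold IA LPS 1 to 3 and not IA LPS 4, and the rule for the 5 genes also names IA LPS 4, so values are given over all 7 libraries and, where calls differ, over the 6 without IA LPS 4. Total counts per library lay between 25031827 and 28336525. At that depth 3 counts, taken as the floor of detection, corresponded to between 0.105 and 0.124 CPM (counts scaled to library size, with TMM normalisation). Of 6 markers of lung epithelium 2 had an identifier, Sftpc and Nkx2-1, and the tissue label was checked against them. The lowest library was at 478 CPM for Sftpc and at 311 CPM for Nkx2-1. Sftpc, surfactant protein C of type 2 alveolar cells, was at 478, 589 and 667 CPM in control 1, 2 and 3 and at 729, 987, 829 and 1223 CPM in IA LPS 1, 2, 3 and 4. Its groups did not overlap either, as for the 5 genes, and it was not called with edgeR, with a log2 fold change of 0.70 with an SE of 0.194 (edgeR adjusted p = 0.145), though DESeq2 called it (adjusted p = 0.0158). The summed level of the pair was 789, 978 and 991 CPM in control 1, 2 and 3 and 1082, 1338, 1207 and 1587 CPM in IA LPS 1, 2, 3 and 4, with the larger part of the sum from Sftpc and neither at 0. Parts of a sum are in CPM, which does not take transcript length into account. The groups overlapped for Nkx2-1, and the part of the epithelium in the levels of the 5 genes was not tested.

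Neutrophils are short-lived white blood cells that leave the blood within hours of a bacterial signal, and they enter the fetal airspaces in chorioamnionitis. Their precursors make granule proteins in a fixed order, with primary granule proteins such as myeloperoxidase made earliest and the contents of secondary and tertiary granules later. S100a8 and S100a9 encode the subunits of calprotectin, a calcium-binding protein that fills the neutrophil cytosol, Mmp8 encodes neutrophil collagenase, Trem1 a receptor that amplifies inflammatory signalling, and Lrg1 a secreted leucine-rich glycoprotein of neutrophil granules and of the acute phase.

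All 5 genes had a higher CPM in every IA LPS library than in any control library. Mmp8 and Trem1, 2 of the 5, were called higher with edgeR's quasi-likelihood test, where a call needed a 1.5-fold change or more, an unadjusted p under 0.05 and a Benjamini-Hochberg adjusted p under 0.1. Across the genome 220 of 15750 tested genes were called higher (1.4%), 80 were called lower, and 1666 (10.6%) had every IA LPS library above every control library. Over the 6 libraries S100a9, Mmp8 and Trem1 were called, 3 of the 5, where 339 of 15627 tested genes were called higher (2.17%). The names of all 5 were paired with identifiers in a list of genes that rose in placenta after the same injection. Of 721 tested genes named from that list alone, 35 were called higher in lung (4.85%) and 121 did not overlap between the groups (16.8%). Lrg1, whose name was also in another list, is not among the 721. Trem1 is also among the genes the study picked from these lungs. All 5 were chosen with earlier results of these data known, so the direction of none of them is independent evidence. In whole lung, more cells of a type and more RNA per cell cannot be told apart.

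**Figure D1:**
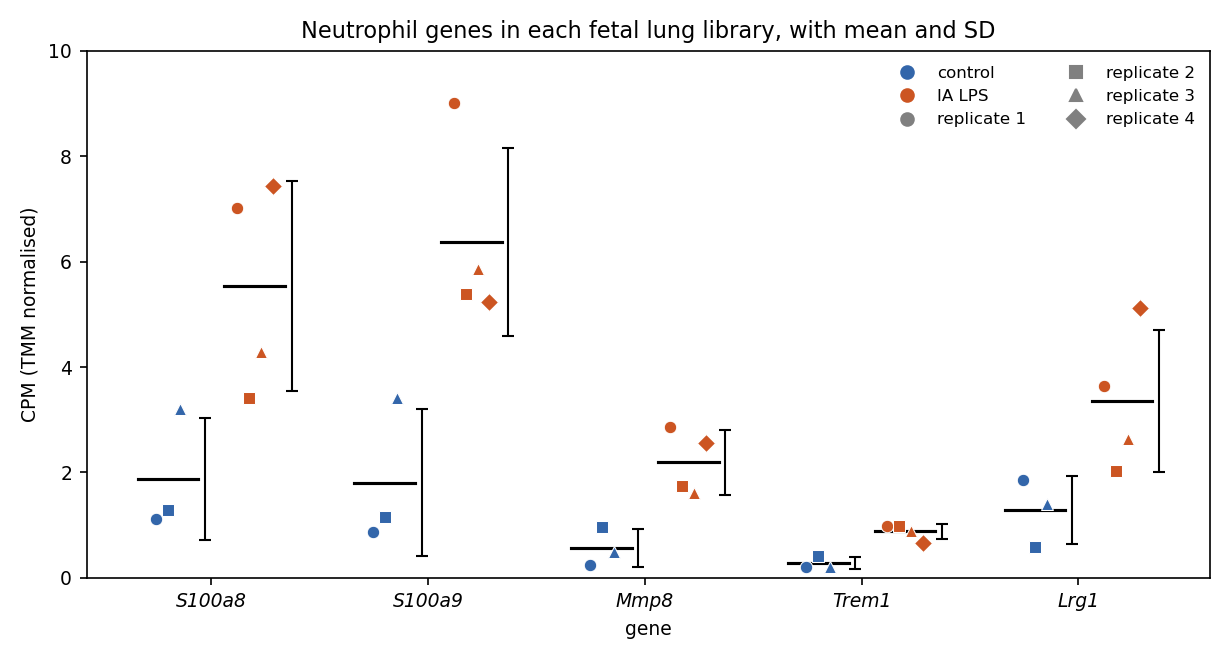
TMM-normalised CPM of S100a8, S100a9, Mmp8, Trem1 and Lrg1 in each library, with control lungs in blue and IA LPS lungs in orange, a marker shape for each replicate, the group mean as a line and the SD as a bar (n = 3 control, n = 4 IA LPS). For every gene the orange points lie above the blue ones. The ratio of the lowest orange point to the highest blue point was smallest for S100a8. There control 3 stood at 3.20 CPM and IA LPS 2 at 3.42 CPM. Levels cannot be compared between genes, because transcript length was not taken into account.

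S100a8, the smaller calprotectin subunit, had counts of 27, 35 and 91 in control 1, 2 and 3 and of 201, 94, 120 and 200 in IA LPS 1, 2, 3 and 4. In CPM these were 1.11, 1.29 and 3.20 in the control lungs, against 7.02, 3.42, 4.28 and 7.43 in the IA LPS lungs. IA LPS 1 and IA LPS 4 were high, and control 3 lay just under the lowest IA LPS library. The exact Poisson intervals of those neighbours, 73.3 to 112 counts for control 3 and 76.0 to 115 for IA LPS 2, overlapped almost fully, so their order is not fixed beyond counting error. The mean was 1.87 ± 1.16 CPM in control (SD, n = 3) and 5.54 ± 1.99 CPM in IA LPS (SD, n = 4). The difference, a log2 fold change of 1.56 with an SE of 0.439 (edgeR adjusted p = 0.153), was not past the thresholds. It was 1.38 (edgeR adjusted p = 0.107) over the 6 libraries, and 2.20 without control 3.

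S100a9, the other calprotectin subunit, had counts of 21, 31 and 97 in control 1, 2 and 3 and of 258, 148, 164 and 141 in IA LPS 1, 2, 3 and 4. In CPM the control lungs were at 0.865, 1.15 and 3.41 and the IA LPS lungs at 9.01, 5.38, 5.85 and 5.23. IA LPS 1 stood above the other IA LPS lungs, which lay close together, and control 3 again stood above the other control lungs. The means were 1.81 ± 1.40 CPM in control (SD, n = 3) and 6.37 ± 1.78 CPM in IA LPS (SD, n = 4). S100a9 missed the adjusted p over the 7 libraries, with a log2 fold change of 1.81 with an SE of 0.465 (edgeR adjusted p = 0.127). Over the 6 libraries it passed, with a log2 fold change of 1.89 with an SE of 0.468 (edgeR adjusted p = 0.0590). Without control 3 it was 2.66.

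The 2 subunit genes are next to each other in the RefSeq annotation and were counted in a changing proportion. S100a9 made up 43.8%, 46.97% and 51.6% of their joint counts in control 1, 2 and 3. It made up 56.2%, 61.2% and 57.7% in IA LPS 1, 2 and 3, above every control lung, and 41.3% in IA LPS 4, below every control lung. The exact (Clopper-Pearson) 95% interval of IA LPS 4, 36.1% to 46.8%, did not reach those of IA LPS 1, 2 and 3, which began at 51.5%, 54.7% and 51.8%. These intervals cover counting error only. The control lungs averaged 47.4% ± 3.94 (SD, n = 3) and the IA LPS lungs 54.1% ± 8.76 (SD, n = 4), a difference smaller than the spread of the IA LPS lungs (two-sided exact permutation test, p = 0.286, where 0.0571 was the smallest p the design allowed). The size of the share also includes the lengths of the 2 transcripts. IA LPS 4 was thus the highest library in S100a8 and the lowest IA LPS library in S100a9.

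**Figure D2:**
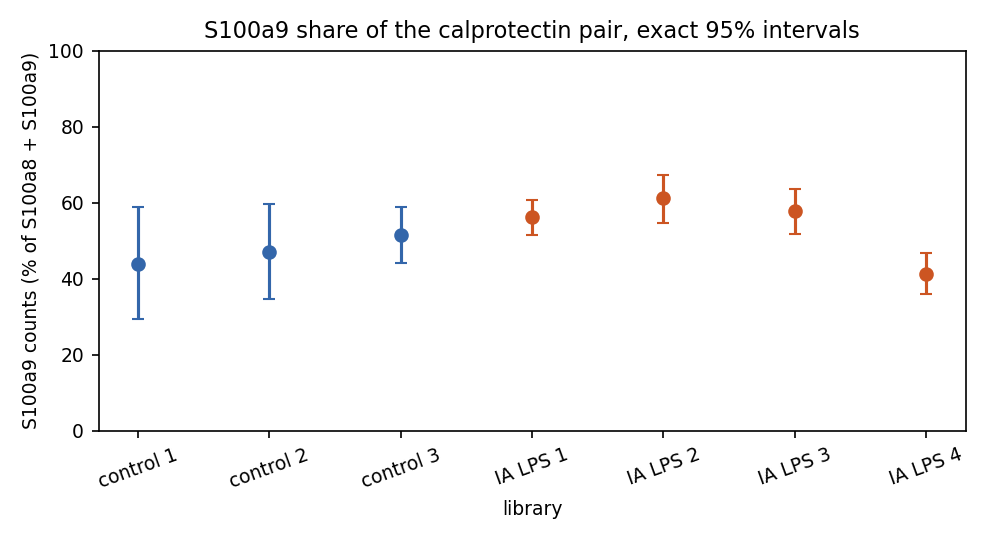
S100a9 counts as a percent of S100a8 plus S100a9 counts (vertical axis) in each library (horizontal axis), with exact 95% binomial intervals as bars, control lungs in blue and IA LPS lungs in orange. The share was between 43.8% and 51.6% in control lungs, between 56.2% and 61.2% in IA LPS 1, 2 and 3 and 41.3% in IA LPS 4.

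Of the 14 S100 family genes listed, 3 had an identifier, namely this pair and S100a4, a calcium-binding protein of many motile cells. S100a4, which was named after its values were seen, was at 6.12 ± 1.39 CPM in control (SD, n = 3) and 8.22 ± 1.75 CPM in IA LPS (SD, n = 4), and the groups overlapped. Its log2 fold change was 0.43 (SE 0.223, adjusted p = 0.395, edgeR). With edgeR none of the 3 was called over the 7 libraries, and S100a8 and S100a9 had an unadjusted p under 0.05. Over the same libraries DESeq2 called both (adjusted p = 0.0117 and 0.00290), and limma-voom called S100a9 (adjusted p = 0.0886). The receptors and adaptors of calprotectin were not analysed here.

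Mmp8, the collagenase of secondary granules, had counts of 6, 26 and 14 in control 1, 2 and 3 and of 82, 48, 45 and 69 in IA LPS 1, 2, 3 and 4. In CPM these were 0.247, 0.961 and 0.492 in the control lungs, against 2.86, 1.75, 1.61 and 2.56 in the IA LPS lungs. IA LPS 1 and IA LPS 4 were the highest, control 2 the highest control lung, and the lowest IA LPS lung was 1.67 times as high as control 2. The exact Poisson intervals of the counts in control 2 and IA LPS 3 overlapped, from 17.0 to 38.1 and from 32.8 to 60.2. Mmp8 rose from 0.567 ± 0.363 CPM (SD, n = 3) to 2.19 ± 0.614 CPM (SD, n = 4), a 3.82-fold increase with a 95% interval of 1.87 to 7.81. Its log2 fold change was 1.94 (SE 0.451, adjusted p = 0.0970, edgeR), and 1.85 (edgeR adjusted p = 0.0642) over the 6 libraries. The call was lost without control 1, 2 or 3 or IA LPS 1, 2 or 3, with log2 fold changes of 1.59 (without control 1) to 2.54 (without control 2) and edgeR adjusted p-values of 0.142 to 0.313.

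Of the 12 genes listed for secondary and tertiary granules, 5 had an identifier and all 5 were tested. Among them RatNP-3b, named after its values were seen, is an alpha-defensin, a kind of peptide stored in primary granules, and is given below beside Mpo. Mmp8 was the only one called with edgeR and limma-voom, and DESeq2 also called Cd177. All 5 log2 fold changes were above 0, and 3 of the 5, Mmp8 among them, did not overlap between the groups. The share without overlap and higher in IA LPS was 10.6% of all tested genes and 16.8% of those named because they rose in placenta. The median log2 fold change was 1.20 over the 5 and 0.79 over the 4 without Mmp8, against 0.0097 over all tested genes and 0.20 over the 721 named because they rose in placenta, of which 66.6% were above 0, against 51.5% of all tested genes. Without RatNP-3b, a choice made after seeing the data, it was 1.21 over 4 genes and 1.20 over the 3 left without Mmp8. Mmp9, gelatinase B of tertiary granules, had counts of 10, 8 and 9 in control 1, 2 and 3 and of 17, 26, 20 and 24 in IA LPS 1, 2, 3 and 4. Its groups did not overlap, with 0.341 ± 0.0619 CPM in control (SD, n = 3) and 0.786 ± 0.162 CPM in IA LPS (SD, n = 4). It was not past the adjusted p, with a log2 fold change of 1.20 with an SE of 0.340 (edgeR adjusted p = 0.155). Cd177, a surface protein of secondary granules that was named after its values were seen, had a log2 fold change of 1.22 with an SE of 0.326 (edgeR adjusted p = 0.136), also without overlap. It was called without IA LPS 3, at 1.41 (edgeR adjusted p = 0.0957), and with DESeq2 over the 7 libraries (adjusted p = 0.0276). Camp, the cathelicidin of secondary granules, had counts of 5, 7 and 23 in control and of 12, 15, 25 and 10 in IA LPS 1, 2, 3 and 4. Here the groups overlapped, and the log2 fold change of 0.37 with an SE of 0.559 (edgeR adjusted p = 0.772) was smaller than its error. It was 1.24 without control 3 and 0.052 without IA LPS 3, the highest and the lowest value with 1 library left out, and not called in any of those fits. The summed level of the 5 genes was 2.10, 2.99 and 4.61 CPM in control 1, 2 and 3, against 8.07, 7.49, 5.25 and 7.94 CPM in IA LPS 1, 2, 3 and 4, with the largest part from Cd177 except in control 3 (RatNP-3b) and IA LPS 3 (Mmp8). Without RatNP-3b it was 1.81, 2.62 and 2.92 CPM in the control lungs and 6.77, 5.71, 4.71 and 7.43 CPM in the IA LPS lungs.

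Mpo, or myeloperoxidase, was the 1 gene of the 4 listed for primary granules with an identifier. It had counts of 80, 37 and 230 in control 1, 2 and 3 and of 70, 208, 39 and 54 in IA LPS 1, 2, 3 and 4. In CPM the control lungs were at 3.29, 1.37 and 8.09 and the IA LPS lungs at 2.44, 7.56, 1.39 and 2.00. Control 3 and IA LPS 2 stood far above the other libraries, and the groups overlapped throughout. The log2 fold change of Mpo was -0.35 (SE 0.694, adjusted p = 0.835, edgeR), smaller than its error. It was 0.53 without control 3 and -1.12 without IA LPS 2. The defensin RatNP-3b had counts of 7, 10 and 48 in control 1, 2 and 3 and of 37, 49, 15 and 14 in IA LPS 1, 2, 3 and 4. As for Mpo, control 3 and IA LPS 2 were the highest libraries and the groups overlapped. Its log2 fold change was 0.38 (SE 0.697, adjusted p = 0.816, edgeR), smaller than its error, 1.63 without control 3 and -0.010 without IA LPS 2. The same 2 libraries were the highest of their groups in the summed level of the erythroid markers, of which 7 of 10 had an identifier. They were also the highest for each single marker but Ahsp, named after its values were seen, where IA LPS 4 was at 67.8 CPM and IA LPS 2 at 65.3 CPM. The pattern was not particular to erythroid markers. Control 3 and IA LPS 2 also led their groups in the sums of the all-leukocyte, mast cell, T and NK cell and neutrophil attractant lists, and for the monocyte marker Fcgr3a. The summed erythroid level was 350, 276 and 417 CPM in control 1, 2 and 3 and 276, 575, 370 and 415 CPM in IA LPS 1, 2, 3 and 4, with the largest part from Slc4a1 except in IA LPS 4 (Alas2), and no marker at 0. No erythroid gene was called or had an unadjusted p under 0.05 with edgeR, DESeq2 or limma-voom, and the median log2 fold change of the 7 was 0.24. Across the 7 libraries, which share depth and group, the log2 of that sum had a Pearson r of 0.674 with Mpo, of 0.47 with RatNP-3b, of 0.558 with Mmp9, of 0.423 with Camp, of -0.064 with Csf3r and of between 0.032 and 0.264 with the 5 neutrophil genes. The part of blood cells in these levels was not tested. Without control 3 and IA LPS 2, a choice made after seeing the data, the log2 fold changes of S100a8, S100a9, Mmp8, Trem1 and Lrg1 were 2.37, 2.73, 1.93, 1.44 and 1.64. Without IA LPS 2 alone they were 1.73 for S100a8 and 1.88 for S100a9, and without control 3 alone 2.20 and 2.66. With those 5 libraries no gene of the table was called with edgeR, 1473 genes had an unadjusted p under 0.05, and the 5 neutrophil genes were all among them.

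Trem1, the activating receptor, had counts of 5, 11 and 6 in control 1, 2 and 3 and of 28, 27, 25 and 18 in IA LPS 1, 2, 3 and 4. In CPM these were 0.206, 0.407 and 0.211 in the control lungs, against 0.978, 0.982, 0.892 and 0.668 in the IA LPS lungs. Control 2 was the highest control lung and IA LPS 4 the lowest IA LPS lung, and the exact Poisson intervals of their counts overlapped, from 5.49 to 19.7 and from 10.7 to 28.4. Trem1 rose from 0.275 ± 0.115 CPM (SD, n = 3) to 0.880 ± 0.147 CPM (SD, n = 4), a 3.16-fold increase with a 95% interval of 1.74 to 5.76. Its log2 fold change was 1.66 (SE 0.379, adjusted p = 0.0938, edgeR), and 1.77 (edgeR adjusted p = 0.0481) over the 6 libraries. This call too was lost without control 1, 2 or 3 or IA LPS 1, 2 or 3, with log2 fold changes of 1.499 to 2.05 and edgeR adjusted p-values of 0.169 to 0.354.

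Of 12 genes of the TREM family, its ligand and its adaptors, 5 had an identifier and 4 were tested. Trem1 was the only one called with edgeR, DESeq2 or limma-voom, and the median log2 fold change of the other 3 was 0.16. Trem3, which lies next to Trem1 in the RefSeq annotation and was named after its values were seen, was too low to be tested. It had counts of 0, 4 and 3 in control 1, 2 and 3 and of 10, 14, 9 and 1 in IA LPS 1, 2, 3 and 4, so IA LPS 4 lay within the control range. Of 14 neutrophil surface receptors, 5 had an identifier and 3 were tested, of which Trem1 alone was called with the same tools. Csf3r, the receptor of granulocyte colony-stimulating factor, had counts of 144, 216 and 224 in control 1, 2 and 3 and of 294, 259, 245 and 157 in IA LPS 1, 2, 3 and 4. In CPM it was at 5.93, 7.99 and 7.87 in the control lungs and at 10.3, 9.42, 8.74 and 5.83 in the IA LPS lungs, so IA LPS 1, 2 and 3 lay above every control lung and IA LPS 4 below every one of them, by little. Its level was 7.26 ± 1.16 CPM in control (SD, n = 3) and 8.56 ± 1.93 CPM in IA LPS (SD, n = 4), with a log2 fold change of 0.24 with an SE of 0.216 (edgeR adjusted p = 0.621). Over the 6 libraries the log2 fold change was 0.38 (edgeR adjusted p = 0.189). The summed level of the 5 receptors was 6.79, 9.43 and 9.28 CPM in control 1, 2 and 3 and 13.5, 12.3, 11.2 and 7.35 CPM in IA LPS 1, 2, 3 and 4. Clec4e, a receptor for mycobacterial glycolipid, had no count in a control lung and at most 3 in an IA LPS lung. Of the other genes that define neutrophils, Elane, Ltf, Ngp, Lcn2, Cxcr2 and Itgam were not analysed here.

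Lrg1, the secreted glycoprotein, had counts of 45, 16 and 40 in control 1, 2 and 3 and of 104, 56, 74 and 138 in IA LPS 1, 2, 3 and 4. In CPM the control lungs were at 1.85, 0.592 and 1.41 and the IA LPS lungs at 3.63, 2.04, 2.64 and 5.12. IA LPS 4 was the highest, and IA LPS 2 lay just above control 1, at 1.10 times its level. The exact Poisson intervals of the counts in control 1 and IA LPS 2 overlapped, from 32.8 to 60.2 and from 42.3 to 72.7. The means were 1.28 ± 0.640 CPM in control (SD, n = 3) and 3.36 ± 1.35 CPM in IA LPS (SD, n = 4). Lrg1 missed the adjusted p at a log2 fold change of 1.39 with an SE of 0.444 (edgeR adjusted p = 0.199). Over the 6 libraries the log2 fold change was 1.11 (SE 0.406, adjusted p = 0.157, edgeR). Of 15 acute phase genes and targets of STAT3, 3 had an identifier, and none was called with edgeR or limma-voom, where Lrg1 alone had an unadjusted p under 0.05. DESeq2 called Lrg1 (adjusted p = 0.0469). The median log2 fold change of the 2 without Lrg1 was -0.065. Of the partners of Lrg1 in TGF-beta signalling, none other than Lrg1 itself was analysed here.

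The 5 genes did not order the libraries alike. IA LPS 1 was the highest or second highest library for each of the 5. IA LPS 4 was the highest for S100a8 and Lrg1 and the lowest IA LPS library for S100a9 and Trem1. Control 1 was the lowest of the 7 libraries for S100a8, S100a9, Mmp8 and Trem1, yet the highest control lung for Lrg1. Across the 7 libraries, which share depth and group, Pearson r of log2 CPM was highest between S100a8 and S100a9 (0.943) and between Mmp8 and Trem1 (0.917). It was lowest between Trem1 and Lrg1 (0.516) and between Mmp8 and Lrg1 (0.566).

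Of 16 neutrophil attractants, growth factors and adhesion genes, 5 had an identifier and 2 were tested, of which 1 was called. The sum of the 5 was 25.6, 21.8 and 40.6 CPM in control 1, 2 and 3 and 42.0, 46.3, 35.8 and 39.6 CPM in IA LPS 1, 2, 3 and 4, with the largest part from Icam1 except in control 3 (C3), and the groups overlapped. Icam1, the endothelial and epithelial ligand of leukocyte integrins, was at 16.9, 15.97 and 17.96 CPM in control 1, 2 and 3 and at 29.7, 29.4, 24.8 and 30.8 CPM in IA LPS 1, 2, 3 and 4. Every IA LPS lung lay well above the control lungs, which hardly differed. Icam1 rose from 16.95 ± 0.996 CPM (SD, n = 3) to 28.7 ± 2.64 CPM (SD, n = 4), a log2 fold change of 0.76 with an SE of 0.111 (edgeR adjusted p = 0.0389). Its log2 fold change lay between 0.72 and 0.82 whichever library was left out, and its call was lost without control 1, 2 or 3 or IA LPS 2. Il1b, which encodes interleukin-1 beta and was named after its values were seen, was too low to be tested, with counts of 0, 1 and 0 in control 1, 2 and 3 and of 9, 6, 3 and 7 in IA LPS 1, 2, 3 and 4. C3, a complement protein, was also named after its values were seen. It was at 8.65, 5.73 and 22.6 CPM in control 1, 2 and 3 and at 11.9, 16.7, 10.8 and 8.50 CPM in IA LPS 1, 2, 3 and 4, high in control 3 and overlapping between the groups. The log2 fold change of C3 was -0.042 (SE 0.438, adjusted p = 0.971, edgeR), and 0.74 without control 3. Il1a, which encodes interleukin-1 alpha, had at most 3 counts in any library. Cxcl2, a neutrophil chemokine, had no count in a control lung and 1 count in IA LPS 1 alone. Of 16 matrix metalloproteinases, 4 had an identifier and Mmp8 and Mmp9 were tested. No inhibitor of these enzymes was analysed here.

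Markers of other leukocytes were read beside these genes. Of 10 macrophage markers 6 had an identifier and were tested, and C1qa, C1qb and C1qc, the subunits of the complement component C1q, were called higher with edgeR and DESeq2, and C1qb and C1qc with limma-voom. The log2 fold changes of the 3 were 0.83, 0.83 and 0.91, each below those of the 5 neutrophil genes, a difference that was not tested. The summed macrophage level was 122, 129 and 145 CPM in control 1, 2 and 3 and 226, 236, 176 and 267 CPM in IA LPS 1, 2, 3 and 4, with the largest part from C1qc and none at 0. The calls of C1qa, C1qb and C1qc were lost without control 1, 2 or 3 or IA LPS 1 or 2, with log2 fold changes of 0.68 to 1.03 over the 7 fits that left out a library. Cx3cr1, the fractalkine receptor, was named after its values were seen, because its call differed over the 6 libraries. It was at 3.67, 5.21 and 4.01 CPM in control 1, 2 and 3 and at 6.32, 7.49, 7.46 and 2.71 CPM in IA LPS 1, 2, 3 and 4, with IA LPS 4 below every control lung. Its log2 fold change was 0.48 (SE 0.339, adjusted p = 0.521, edgeR), and 0.72 (edgeR adjusted p = 0.0564) over the 6 libraries, where it was called. The 1 monocyte marker of 6, Fcgr3a, did not overlap between the groups and was not called with edgeR, DESeq2 or limma-voom, at an unadjusted p under 0.05 in each. Of 4 markers of all leukocytes 2 were tested, and neither was called or had an unadjusted p under 0.05 with edgeR, DESeq2 or limma-voom. Their sum was 33.0, 29.8 and 39.4 CPM in control 1, 2 and 3 and 39.1, 61.2, 33.0 and 43.4 CPM in IA LPS 1, 2, 3 and 4, highest in IA LPS 2, with the largest part from Coro1a. Of 8 mast cell, basophil and eosinophil markers 3 were tested, and of 8 T and NK cell markers 1. None of these 4 was called or had an unadjusted p under 0.05 with those tools. Mcpt1 gave the largest part of the mast cell sum, and Nkg7 that of the T and NK cell sum except in control 2 (Klrd1). Both sums overlapped between the groups. They ran from 4.20 to 8.80 CPM for the mast cell list and from 0.702 to 1.49 CPM for the T and NK cell list. Markers of B cells, megakaryocytes, endothelium and mesenchyme were not analysed here. The part of other cell types in the levels of the 5 genes was not tested.

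Tested genes averaging 1 CPM or more, between 14316 and 14317 for each comparison, were ranked by the Pearson r of their log2 CPM with each of the 5 genes over the 7 libraries. The 3 closest genes were taken for each, and 3 of these 15 had a name. Odad3, which encodes a part of the docking complex of ciliary dynein arms, was among the closest to S100a8, with r = 0.982 and a log2 fold change of 0.88 with an SE of 0.286 (edgeR adjusted p = 0.208). Emp2 and Cldn18, which mark type 1 alveolar cells, were among the closest to Mmp8, with r = 0.987 and 0.984. Both were called higher over the 7 libraries, with log2 fold changes of 0.63 and 0.66, and their calls were lost without control 1, 2 or 3 or IA LPS 1, 2 or 3. The closest gene to S100a9, the unnamed ENSRNOG00000015205, reached r = 0.997 with a log2 fold change of only 0.18 with an SE of 0.0869 (edgeR adjusted p = 0.370). The closest gene to Trem1, the unnamed ENSRNOG00000029330, had r = 0.984 and was called higher, with a log2 fold change of 1.02 with an SE of 0.219 (edgeR adjusted p = 0.0789), a call that was lost without control 1, 2 or 3 or IA LPS 1, 2 or 3. The closest to Lrg1, also unnamed, had r = 0.973. With 7 libraries in 2 groups and so many genes compared, values this high describe the ranking and no relation was tested.

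**Figure D3:**
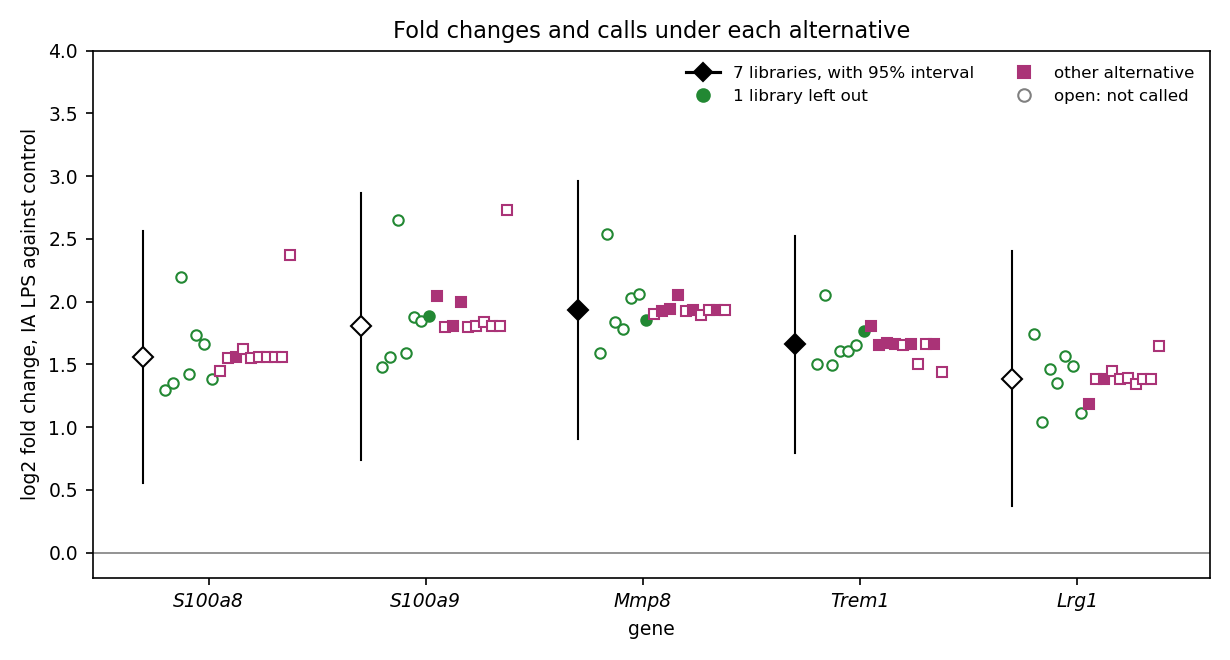
Log2 fold change of each gene, IA LPS against control (vertical axis), over the 7 libraries (diamonds, with 95% intervals), with 1 library left out (green circles) and under the other alternatives (purple squares), where filled symbols are calls and open symbols are not. Every value lies above 0, between 1.04 and 2.73, while the calls come and go with the setting.

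The log2 fold changes of the 5 genes stayed above 1 under each of the 15 alternatives that refitted the counts, and all 5 had an unadjusted p under 0.05 in each of them (edgeR, DESeq2 or limma-voom). Among all tested genes 1435 of 15750 were higher at an unadjusted p under 0.05 over the 7 libraries (9.11%), and between 5.32% and 11.2% were under those 15. The other 2 alternatives changed only a threshold. The adjusted p was less steady. With edgeR none of the 5 was called without control 1, 2 or 3 or without IA LPS 1, 2 or 3. In those fits the whole table held 1, 1 and 2 genes called higher without control 1, 2 and 3 and 126, 1 and 127 without IA LPS 1, 2 and 3. With DESeq2 all 5 genes were called, where 424 genes of the table were called higher. With limma-voom S100a9, Mmp8 and Trem1 were called, where 188 were.

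Promoter windows are shown for S100a9, Mmp8 and Trem1, chosen because they were called over the 6 libraries. S100a9 was not called over the 7 libraries. The window of Lrg1, a gene also higher in every IA LPS lung, was searched but is not shown. Each window runs from 250 bases before the gene start to 50 bases after it, in the RefSeq annotation of the build GRCr8, which is not the build used for counting. RefSeq windows were found for 4 of the 5 genes, S100a9, Mmp8, Trem1 and Lrg1. The windows lie at chr2:178490573-178490872 on the minus strand for S100a9, chr8:13008640-13008939 on the plus strand for Mmp8 and chr9:20272420-20272719 on the minus strand for Trem1. They are written 5′ to 3′ along the gene, and capitals mark the letters TATAAA (the TATA box), TTNNGNAA (a core bound by C/EBP factors) and GAGGAA (a core bound by PU.1) on either strand.
S100a9: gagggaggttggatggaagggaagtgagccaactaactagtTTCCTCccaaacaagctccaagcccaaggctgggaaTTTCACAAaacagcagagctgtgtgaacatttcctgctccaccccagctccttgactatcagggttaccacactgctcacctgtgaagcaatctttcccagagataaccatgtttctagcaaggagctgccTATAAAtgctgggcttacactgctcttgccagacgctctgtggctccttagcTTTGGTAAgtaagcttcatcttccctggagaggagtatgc
Mmp8: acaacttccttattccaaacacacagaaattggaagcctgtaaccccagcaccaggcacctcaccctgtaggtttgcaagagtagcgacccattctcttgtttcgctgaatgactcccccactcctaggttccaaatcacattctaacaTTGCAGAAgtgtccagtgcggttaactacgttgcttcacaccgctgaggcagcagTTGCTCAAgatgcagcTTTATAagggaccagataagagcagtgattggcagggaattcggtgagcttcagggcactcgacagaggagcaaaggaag
Trem1: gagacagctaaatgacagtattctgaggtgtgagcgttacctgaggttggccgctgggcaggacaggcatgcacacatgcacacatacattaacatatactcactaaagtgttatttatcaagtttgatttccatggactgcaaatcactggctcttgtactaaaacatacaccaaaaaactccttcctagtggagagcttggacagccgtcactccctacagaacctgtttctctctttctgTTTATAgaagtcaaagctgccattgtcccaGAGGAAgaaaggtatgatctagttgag
TATAAA was found in all 4 windows, and in 14.2% of the 33469 RefSeq promoters of the same length. It began 42 bases before the gene start in S100a9 and 40 bases before it in Lrg1, on the strand of the gene. In Mmp8 and Trem1 it was on the opposite strand, beginning 30 and 7 bases before the start. TTNNGNAA was found in S100a9, Mmp8 and Lrg1, and in 41.3% of all promoters. GAGGAA was found in S100a9 and Trem1, and in 27.6% of all promoters. Of 3 further motifs that were searched, TTCNNNGAA (STAT factors, 8.87% of promoters) was found in Mmp8, the NF-kappaB consensus (7.51%) in Lrg1, where it overlaps the TTNNGNAA match, and TGANTCA (AP-1, 7.33%) in none of the 4. A match describes these letters and is not a site shown to be bound.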

How the data were processed

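The authors assigned paired-end reads of poly(A) RNA to transcripts of rat build rno6.0 with kallisto and used tximport to sum them per gene. The deposited table holds estimated counts, not normalised, with software versions not given in the sources used here. They were rounded to whole numbers, and all 35 values of the 5 genes were already whole within 1e-06. Counts were tested with edgeR 4.0.16 in R 4.3.3 after filterByExpr and TMM, with condition as the only term. Group and replicate came from the sample labels. Standard errors are the log2 fold change over the root of F. Log2 CPM used a prior count of 2.

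Alternatives were fits without each library, a block for replicate number, DESeq2 1.42.0 and its size factors, limma-voom (limma 3.58.1), other filters, thinned counts and other thresholds. The test was checked on simulated data. The members and lists were chosen with earlier results of these data known. Named were the 5 genes, called genes of 11 pathway lists, 10 genes that define neutrophils and, for each of the 5, the 3 genes most like it. Other genes of the pathway and marker lists were named outside that rule, among them C1qa, C1qb, C1qc, Fcgr3a and Sftpc. The count table holds identifiers, and the study's supplementary tables, mostly of genes changed in placenta, paired 2050 of them with names. Of 188 list genes 50 had an identifier. Poisson intervals and the floor cover counting error only.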

Additional observations from a re-analysis of the deposited data

Results flagged for a closer look

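28 quantities were looked at for a library far from the other 3 in the IA LPS group, by Dixon's ratio of the gap to the range, and 2 stood apart. S100a9 was at 9.01 CPM in IA LPS 1, and the gap to the next library was 0.836 of the range of the group, past the ratio's critical value at the 95% level for 4 samples. Mpo was at 7.56 CPM in IA LPS 2, with a ratio barely past it. Chance alone gives about 1 such library in 20 groups. Without IA LPS 1 the log2 fold change of S100a9 was 1.59, and no cause was tested for either library.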

How the results depend on the processing

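The log2 fold changes of the 5 genes kept their direction under the 15 alternatives that refitted the counts, and 2 more changed only a threshold. Their adjusted p, close to 0.1 for Mmp8 and Trem1, crossed the threshold in many of them. Of the 5 genes, 2 were called over the 7 libraries. With 1 library left out the number ranged from 0 to 3. It was 5 with DESeq2, and 0 with edgeR without a filter on low counts, with counts thinned to the smallest library, at an adjusted p under 0.05, and without control 3 and IA LPS 2, an alternative chosen after seeing the data. All 5 had an unadjusted p under 0.05 in each of the 15 fits. Across the genome 220 genes were called higher and 80 lower. With 1 library left out the counts ranged from 1 to 339 higher and from 0 to 176 lower, with 424 and 206 for DESeq2, 87 and 37 at an adjusted p under 0.05, and 0 and 0 without control 3 and IA LPS 2. Without a threshold on the fold change 134 were called lower. The cause of these shifts was not tested.

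Mpo changed sign, from -0.35 to 0.53, without control 3, and its log2 fold change ranged from -1.12 to 0.53 over the 7 fits that left out a library. Replicate numbers did not pair the samples, since libraries of the same number deviated from their group means with correlations of 0.145, -0.056 and -0.193. With the replicate block 3 of the 5 genes were called (S100a9, Trem1 and Lrg1), 286 genes higher and 152 lower. IA LPS 4 has no control library of its number, so the block also took it out of the comparison. These counts therefore do not show the effect of the block alone. RatNP-3b changed sign without IA LPS 2, and ranged from -0.010 to 1.63 with 1 library left out. C3, at -0.042, ranged from -0.38 to 0.74 in the same fits, and was 0.30 with the replicate block, 0.15 with limma-voom and 0.54 without control 3 and IA LPS 2. Depth limits the precision of low genes, and the lowest counts were 5 for Trem1 and 6 for Mmp8, both in control 1.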
